A study of Mus musculus with 12 samples.

Results

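Carriers of amino acids and related small molecules were followed across 12 RNA sequencing libraries of mouse embryonic stem cells. They are the protein-coding genes of the solute carrier families SLC1, SLC3, SLC6, SLC7, SLC36, SLC38 and SLC43 whose symbol ends in a number, without Slc7a11, the cystine exchanger. This rule takes 60 of the 55416 genes counted. Slc6a20a and Slc6a20b, whose symbols end in a letter, fall outside it. The rule uses symbols alone and no measured value.

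Each library combines a genotype and a culture state of the Bl/6J line, with 3 libraries in each of 4 groups. C48S RA libraries came from clone number 46, in which the pluripotency factor Oct4 (the product of Pou5f1) carries a serine in place of a cysteine, after 2 days with retinoic acid (RA, 1.5 mg/L) in medium without LIF. WT RA libraries came from wild-type cells treated the same way. Undifferentiated C48S and undifferentiated WT libraries came from the same 2 lines held with inhibitors of MEK (PD, 1 µM) and of GSK3 (CHIR, 3 µM) and with ascorbic acid. The mutant line is 1 clone, so the C48S change and any other difference of that clone from the WT cells cannot be told apart. Nothing in the labels tells whether libraries of 1 group are separate cultures, and p-values then rest on the spread of these samples, which may be technical. The treatment field gives the RA libraries days from 2 to 7, a different day for each library. In that field every WT RA library has an earlier day than every C48S RA library. The titles and the protocol give day 2, which was used here. If the field is right, genotype after RA cannot be told apart from time with RA. The same then holds for differences between the RA changes of the lines, and RA libraries of 1 group would come from different days. Whether the inhibitors stayed in the medium during RA is not given. RA libraries may therefore differ from undifferentiated ones in medium too, and RA cannot be told apart from a change of medium. Wordings such as "RA raised" or "RA lowered" stand for RA libraries against undifferentiated libraries of the same line.

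Amino acid carriers work in a few recognised systems. The SLC3 proteins are heavy chains that bring SLC7 light chains to the cell surface, where the pair exchanges one amino acid for another. SLC38 carriers of systems A and N take up glutamine, alanine and other small neutral amino acids together with sodium, SLC1 carriers take up glutamate or exchange small neutral amino acids, and other SLC7 carriers let in arginine and lysine. SLC6 carriers bring in taurine, creatine, GABA, glycine, proline and, for a few, monoamines, and SLC36 and some SLC38 proteins sit in the lysosome, where they are tied to mTORC1, the kinase complex that senses amino acids. Stem cells in culture depend on a steady supply of glutamine, leucine and arginine, and the transcription factor ATF4 raises many of these carriers when amino acids run short.

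The libraries held 8678088 to 13597098 counts each. Levels of 1 gene across libraries are given here as CPM, counts scaled to a common library size, after TMM scaling, and levels of different genes as TPM, which also divide by transcript length. Undifferentiated C48S replicate 3 stood apart from its fellow libraries, its counts giving a chi-square of 9.94 and 9.70 for each degree of freedom against replicates 1 and 2, where no other pair of replicates in any group exceeded 2.26. Results that change without it are given with and without it. The 8 stem cell markers summed to 864 to 907 CPM in C48S RA libraries, 433 to 454 CPM in WT RA libraries, 5354 to 5474 CPM in undifferentiated C48S libraries and 5398 to 5541 CPM in undifferentiated WT libraries. The 8 trophoblast markers summed to 285 to 310 CPM in C48S RA libraries, 549 to 563 CPM in WT RA libraries, 27.1 to 28.0 CPM in undifferentiated C48S libraries and 23.8 to 24.7 CPM in undifferentiated WT libraries. Endoderm markers lay between 58.8 and 65.2 CPM in RA libraries and between 9.23 and 13.5 CPM in undifferentiated libraries, where Afp and Ttr were at 0. Fibroblast and feeder markers reached 135 to 147 CPM in C48S RA libraries, 152 to 160 CPM in WT RA libraries, 432 to 585 CPM in undifferentiated C48S libraries and 328 to 357 CPM in undifferentiated WT libraries. Neural markers summed to 77.5 to 82.8 CPM in C48S RA libraries, 114 to 118 CPM in WT RA libraries and 242 to 273 CPM in undifferentiated libraries of either line, and mesoderm markers stayed between 16.2 and 41.8 CPM in all libraries. In bulk RNA, fewer cells of a type and less RNA per cell cannot be told apart.

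Of the 60 genes, 47 had enough counts to be tested. The other 13 (Slc1a7, Slc6a2, Slc6a5, Slc6a14, Slc6a18, Slc6a19, Slc6a21, Slc7a12, Slc7a13, Slc7a14, Slc7a15, Slc36a3 and Slc38a11) had 0 to 39 counts in all 12 libraries together. Slc6a18 and Slc7a12 had no count at all, which allows up to 0.0231 CPM over the 12 libraries, counting error alone. Of the untested genes Slc6a19, an intestinal and renal carrier of neutral amino acids, reached 0.829, 0 and 0.977 CPM in WT RA libraries and 0 CPM in all 3 undifferentiated WT libraries. Counts pooled by group were at least 5.83-fold higher taking 3 counts in the group as the floor. WT RA replicate 2 held no count, so the groups overlapped and the spread between libraries is not in that bound.

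A large share of these carriers differed between the 2 lines and between RA and undifferentiated libraries, as did a large share of all genes. A gene was called at an adjusted p under 0.05, from edgeR's quasi-likelihood test with Benjamini-Hochberg adjustment over the 17940 genes tested. After RA, 18 of the 47 tested carriers were higher and 15 lower in C48S than in WT libraries. That is 70.2% of them, where 54.5% of all genes were called, 28.8% higher and 25.7% lower. Before RA, 16 were higher and 13 lower in C48S libraries, or 61.7%, where 55.6% of all genes were called, 27.5% higher and 28.1% lower. Without undifferentiated C48S replicate 3 these counts were 18 higher and 12 lower. In C48S cells RA raised 24 and lowered 15 carriers, or 83.0%, where 73.6% of all genes were called, 39.0% higher and 34.6% lower, and without that library the counts were 23 and 16. In WT cells RA raised 23 and lowered 19 carriers, or 89.4%, where 78.3% of all genes were called, 40.9% higher and 37.4% lower. The RA change itself differed between the lines for 20 carriers, or 42.6%, where 39.4% of all genes were called. For 13 of them the change was higher in C48S (22.2% of all genes) and for 7 it was lower (17.2% of all genes), and without that library for 15 and 9. The 4 gained without it were Slc7a5, Slc6a7, Slc38a8 and Slc43a2.

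The median log2 fold change of the tested carriers for C48S against WT was 0.18 after RA, beside 0.02 over all genes, and 0.17 before RA, beside 0.0014 over all genes. For RA against undifferentiated it was 0.36 in C48S cells, beside 0.05 over all genes, and 0.36 in WT cells, beside 0.06. The median interaction (log2 change with RA in C48S cells less that in WT cells) was 0.24 for the carriers and 0.02 over all genes. Setting carriers absent from a group at their bound touched 0 to 2 carriers in each of the 4 pairwise comparisons. Each bound lay on the same side of the median as the fitted value, so these medians could not move and were not checked by it. It was not done for the interaction. The marker sums given above moved with RA as well, those of trophoblast, endoderm and mesoderm markers being higher and those of stem cell, neural, and fibroblast and feeder markers lower in RA libraries of both lines. Single genes did not all follow the sums. Of the 7 tested neural markers, 5 were called higher and 2 lower with RA in each line. Of the 8 fibroblast and feeder markers, 2 were higher and 6 lower with RA in C48S cells, and 4 higher and 4 lower in WT cells. The shares over all genes were 39.0% and 34.6% in C48S cells, and 40.9% and 37.4% in WT cells. The sum of fibroblast and feeder markers was higher in undifferentiated C48S than in undifferentiated WT libraries, where 4 of the 8 were called higher and 3 lower. The part of these markers in the carrier counts was not tested.

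**Figure D1:**
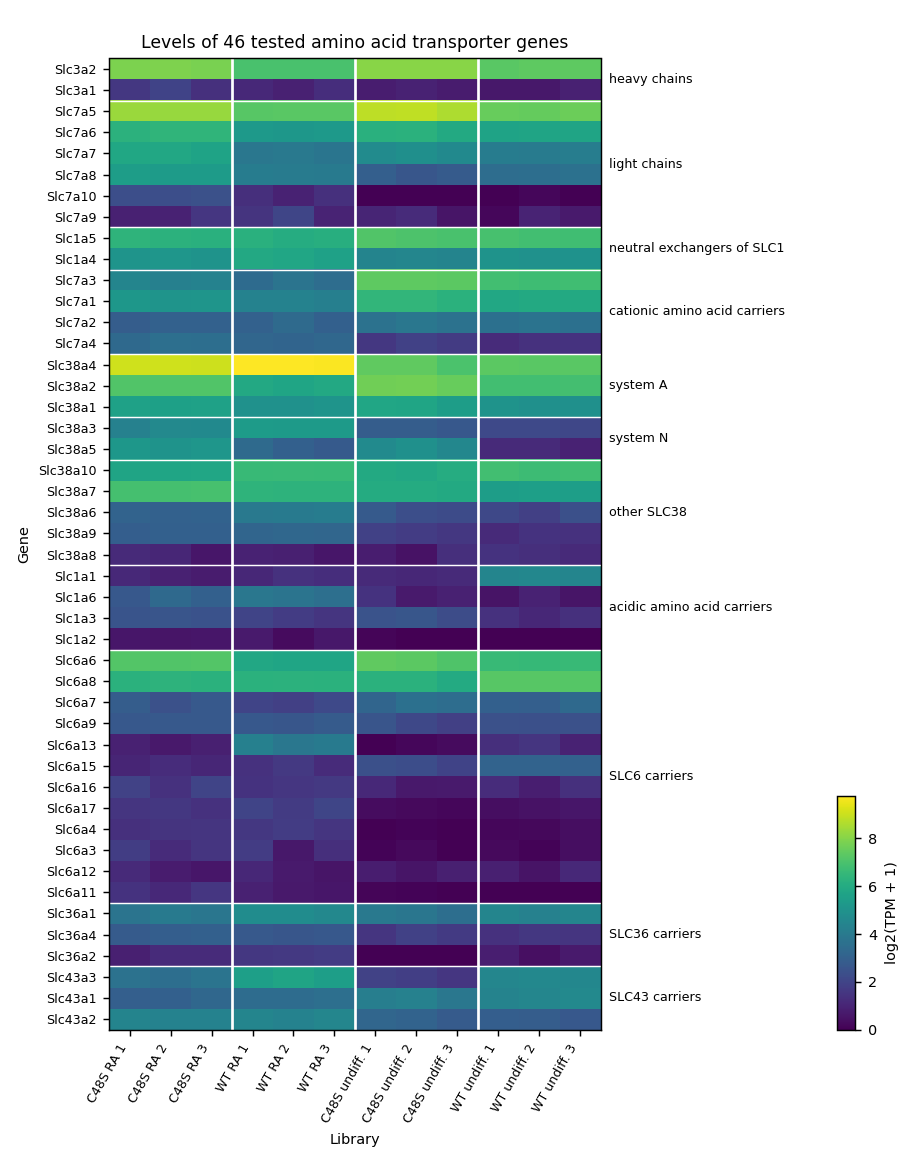
Level of 46 of the 47 tested carriers in each library as log2(TPM + 1), by transporter group, with libraries in columns from C48S RA on the left to undifferentiated WT on the right. The brightest row is Slc38a4 in WT RA libraries, and system N is dark in undifferentiated WT libraries, where its summed level was 4.54 ± 0.377 TPM.

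Summed over all 60 genes, transporter transcripts came to 2214 ± 22.2 TPM in C48S RA libraries, 2023 ± 25.9 TPM in WT RA libraries, 2081 ± 146 TPM in undifferentiated C48S libraries and 1583 ± 15.8 TPM in undifferentiated WT libraries (SD, n = 3 each). Undifferentiated WT libraries were the lowest. System A had the highest sum of the transporter groups in 3 of the 4 groups of libraries, and light chains had it in undifferentiated C48S libraries. Slc38a4 had the highest level over the 12 libraries (431 TPM), followed by Slc7a5 (270.2 TPM), Slc3a2 (196 TPM), Slc38a2 (127 TPM) and Slc6a6 (111 TPM). Slc1a5, Slc6a8, Slc38a10, Slc38a7 and Slc7a3 completed the 10 most abundant, at 98.3, 93.3, 79.7, 76.8 and 75.0 TPM. In undifferentiated cells of both lines the leucine carrier Slc7a5 ranked 1 and its heavy chain Slc3a2 ranked 2 among the carriers. After RA Slc38a4 ranked 1 in both lines, ahead of the same pair. Of the 60 genes, 14 stayed under 1 CPM on average in every group.

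**Figure D2:**
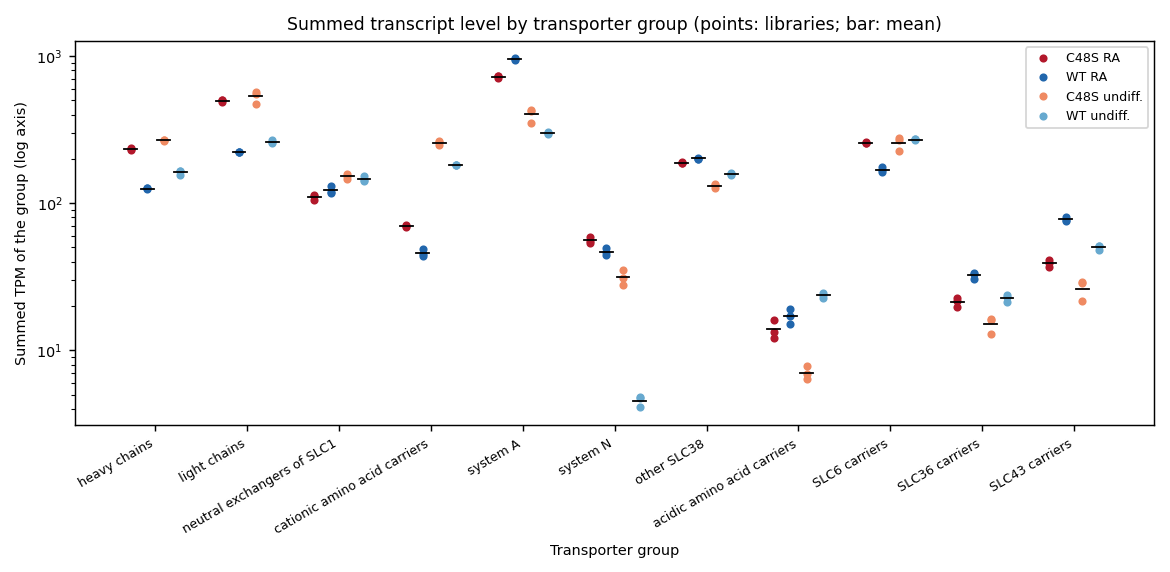
Summed level (TPM, log axis) of each transporter group in each library, with points for libraries and bars for means. Light chains lie at 498 ± 6.30 TPM in C48S RA and 223 ± 0.503 TPM in WT RA libraries, while system A is the group with the highest sum in both RA groups.

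The heavy chain Slc3a2 and 3 of its light chains, Slc7a5, Slc7a6 and Slc7a7, were higher in C48S cells in both states. The heavy chain had 218, 221 and 211 CPM in C48S RA libraries, 118, 116 and 117 CPM in WT RA libraries, 289, 288 and 309.5 CPM in undifferentiated C48S libraries and 182, 193 and 191 CPM in undifferentiated WT libraries. C48S libraries lay above WT libraries of the same state without overlap, and RA libraries lay below undifferentiated ones of the same line. Its log2 fold change for C48S against WT was 0.89 ± 0.049 after RA and 0.65 ± 0.047 before RA (adjusted p = 2.46e-17 and 4.67e-14). RA lowered it by 1.36-fold in C48S cells and 1.61-fold in WT cells. The second heavy chain, Slc3a1, the partner of Slc7a9 in kidney and gut, stayed near 1 CPM, with 1.32 ± 0.420 CPM in C48S RA libraries and 0.555 ± 0.0730 CPM in undifferentiated C48S libraries. That rise was called (adjusted p = 0.0123), but not without C48S RA replicate 2 (adjusted p = 0.0794).

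Slc7a5, the main carrier of leucine and other large neutral amino acids, had 317, 312 and 301 CPM in C48S RA libraries, 150.1, 151 and 152 CPM in WT RA libraries, 511, 526 and 464 CPM in undifferentiated C48S libraries and 226, 216 and 229.7 CPM in undifferentiated WT libraries. It was about as far above WT in either state, by 2.05-fold after RA and 2.23-fold before RA (adjusted p = 7.64e-19 and 1.37e-20), and RA lowered it in both lines. Its RA change did not differ by the test (interaction -0.12 ± 0.07, adjusted p = 0.162), but without undifferentiated C48S replicate 3 the interaction was -0.18 with an adjusted p of 0.00292. Slc7a5 lies on chromosome 8 (chr8:122607889-122634433, GRCm39), where the median gene was higher in C48S by 0.58 after RA and 0.52 before RA on the log2 scale.

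Slc7a7 and Slc7a6 make up system y+L, which sends out arginine and lysine in exchange for neutral amino acids and sodium. Slc7a7 (chr14:54606899-54655237, GRCm39) had 50.3, 50.9 and 43.8 CPM in C48S RA libraries, 12.02, 12.8 and 11.3 CPM in WT RA libraries, 26.1, 28.9 and 26.3 CPM in undifferentiated C48S libraries and 18.04, 17.7 and 18.2 CPM in undifferentiated WT libraries. C48S RA libraries were the highest and WT RA libraries the lowest of the 4 groups, with no overlap between any of them. In C48S cells RA raised Slc7a7 by 1.79-fold (adjusted p = 6.24e-11), and in WT cells RA lowered it by 1.49-fold (adjusted p = 1.09e-05). It was the one carrier called in opposite directions by RA in the 2 lines, and the difference between its changes was 1.41 ± 0.14 on the log2 scale (adjusted p = 1.28e-10). Slc7a6 had 95.5, 102 and 101 CPM in C48S RA libraries, 45.5, 42.8 and 45.6 CPM in WT RA libraries, 102, 105 and 92.7 CPM in undifferentiated C48S libraries and 77.4, 78.7 and 76.7 CPM in undifferentiated WT libraries. RA lowered Slc7a6 in WT cells by 1.74-fold, while in C48S cells its log2 change was -0.0039 ± 0.058 (adjusted p = 0.957), and the changes differed by 0.80 ± 0.086 (adjusted p = 1.8e-09).

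Because ATF4 targets are known to carry an amino acid response element, RefSeq promoter windows (GRCm38.p6, 250 bases before to 50 after an annotated start) were searched for the letters TGATGNAAN on both strands. Windows were found for 42 of the 60 genes, 63 windows in all. The letters occurred in 4 of the 63 windows (6.35%) and in 3.95% of the 32851 windows of all genes. These windows belonged to 3 genes, Slc7a7, Slc1a4 and the untested Slc6a21. The Slc7a7 windows with a match overlap and hold the same TGATGCAAC, so this match enters the count for each of them. The Slc7a7 window with the most matches is shown here with the searched letters in capitals (chr14:54417895-54418194, minus strand), together with that of Slc1a4 (chr11:20332664-20332963, minus strand), where the match is on the opposite strand.
Slc7a7: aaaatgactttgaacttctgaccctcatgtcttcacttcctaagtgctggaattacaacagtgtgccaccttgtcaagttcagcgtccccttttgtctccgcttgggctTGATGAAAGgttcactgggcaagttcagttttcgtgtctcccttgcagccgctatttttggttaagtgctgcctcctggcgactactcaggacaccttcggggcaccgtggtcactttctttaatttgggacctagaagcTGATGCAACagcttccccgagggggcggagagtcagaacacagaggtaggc
Slc1a4: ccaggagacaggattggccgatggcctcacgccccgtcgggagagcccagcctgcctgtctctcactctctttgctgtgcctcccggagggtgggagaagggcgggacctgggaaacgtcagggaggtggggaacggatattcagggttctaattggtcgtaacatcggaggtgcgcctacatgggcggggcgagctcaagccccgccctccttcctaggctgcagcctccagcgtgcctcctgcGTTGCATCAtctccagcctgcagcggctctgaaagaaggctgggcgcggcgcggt
Of these genes Slc7a7 was higher in C48S in both states, as given above, and Slc1a4 was lower in C48S in both states. The Slc3a2 window held no match. A match is a description of these letters and not a site.

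Slc7a8, another large neutral carrier that lies 304 kb from Slc7a7 on chromosome 14, had 58.1, 54.5 and 53.4 CPM in C48S RA libraries, 21.7, 21.1 and 20.5 CPM in WT RA libraries, 10.4, 7.99 and 9.82 CPM in undifferentiated C48S libraries and 17.1, 17.6 and 19.1 CPM in undifferentiated WT libraries. It was the highest in C48S RA libraries and the lowest in undifferentiated C48S libraries, and WT libraries lay between. In C48S cells RA raised it by 5.85-fold, against 1.18-fold in WT cells, and the difference was 2.31 ± 0.14 on the log2 scale (adjusted p = 1.24e-15). The small rise in WT cells was not called without WT undifferentiated replicate 1 (adjusted p = 0.107), WT undifferentiated replicate 2 (adjusted p = 0.0812) or WT RA replicate 1 (adjusted p = 0.0553). Slc7a8 was the one carrier that was higher in C48S after RA (1.39 ± 0.086) and lower there before RA (-0.92 ± 0.11).

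Slc7a10, a light chain for glycine, alanine and serine best known from neurons and fat, had 2.31, 2.34 and 2.46 CPM in C48S RA libraries, 0.829, 0.515 and 0.879 CPM in WT RA libraries, 0 CPM in all undifferentiated C48S libraries and 0, 0.0840 and 0 CPM in undifferentiated WT libraries. In C48S cells it was at least 24.3-fold higher after RA taking 3 counts in the group as the floor, and in WT cells 22.4-fold (95% counting interval 3.63 to 921) higher. After RA it was 3.20-fold higher in C48S than in WT libraries (adjusted p = 0.000302). Slc7a9, its neighbour at 248 kb on chromosome 7 and a cystine carrier of the kidney, stayed at 0.872 ± 0.412 CPM in C48S RA libraries and 1.39 ± 0.783 CPM in WT RA libraries. RA raised Slc7a9 in WT cells by the test (adjusted p = 0.0146), but not without WT undifferentiated replicate 1 (adjusted p = 0.0986) or WT RA replicate 2 (adjusted p = 0.199). After RA, 5 of the 6 tested light chains were called higher in C48S and none lower, beside 28.8% and 25.7% of all genes. Before RA, 3 were higher and Slc7a8 was lower, beside 27.5% and 28.1% of all genes.

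**Figure D3:**
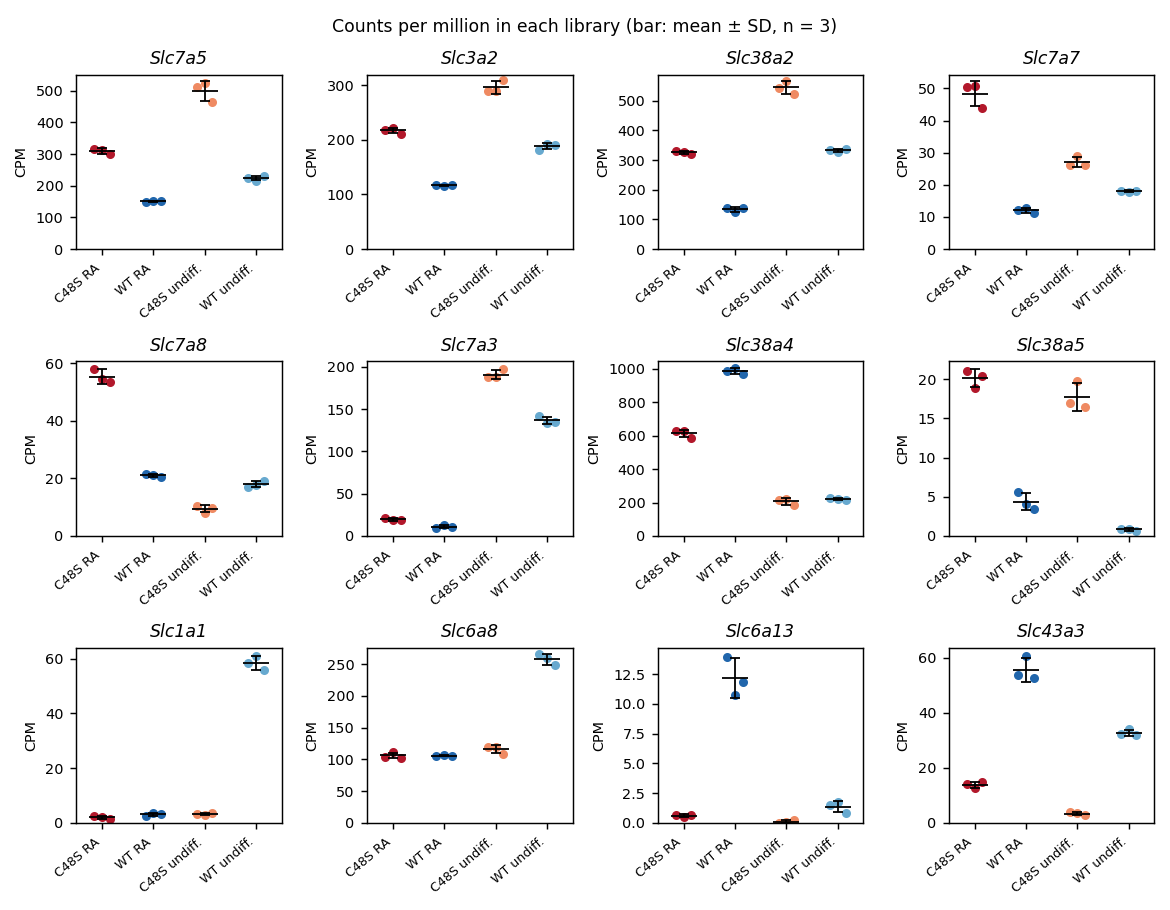
Level (CPM, linear axes from 0) of 12 carriers in each library, with points for libraries and bars for the mean ± SD of 3 libraries. Slc7a7 is the highest in C48S RA libraries (48.3 ± 3.93 CPM), Slc1a1 in undifferentiated WT libraries (58.2 ± 2.52 CPM) and Slc6a13 in WT RA libraries (12.2 ± 1.66 CPM).

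The neutral exchangers of the SLC1 family behaved unlike each other. Slc1a5, the main glutamine exchanger, had 90.6, 86.3 and 80.9 CPM in C48S RA libraries, 80.3, 72.1 and 76.1 CPM in WT RA libraries, 178, 169 and 172 CPM in undifferentiated C48S libraries and 169, 158 and 149.7 CPM in undifferentiated WT libraries. RA lowered it by 2.01-fold in C48S cells and 2.09-fold in WT cells, and its changes did not differ by the test (interaction 0.05 ± 0.081, adjusted p = 0.643). C48S RA libraries lay just above WT RA libraries, and before RA the genotypes overlapped. The call after RA (0.18 ± 0.06, adjusted p = 0.0124) was lost without WT RA replicate 2 (adjusted p = 0.0965), WT RA replicate 3 (adjusted p = 0.0652) or C48S RA replicate 1 (adjusted p = 0.0971). Before RA its difference missed the threshold (0.12 ± 0.055, adjusted p = 0.0573) and passed it without undifferentiated C48S replicate 3 (0.13, adjusted p = 0.0129). Slc1a4, which exchanges alanine, serine and cysteine, had 34.3, 36.6 and 33.1 CPM in C48S RA libraries, 61.6, 56.5 and 50.0 CPM in WT RA libraries, 24.4, 25.7 and 26.5 CPM in undifferentiated C48S libraries and 41.7, 39.2 and 39.7 CPM in undifferentiated WT libraries. It was lower in C48S in both states, by 1.62-fold after RA and 1.58-fold before RA, and RA raised it in both lines. Slc1a4 lies on chromosome 11, where the median gene was lower in C48S by a log2 change of -0.48 after RA and -0.53 before RA.

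Carriers of arginine and lysine were among the carriers that RA lowered the most. Slc7a3, a cationic amino acid carrier of brain and early embryo, had 21.1, 18.5 and 19.2 CPM in C48S RA libraries, 9.74, 12.9 and 10.3 CPM in WT RA libraries, 188, 188 and 197 CPM in undifferentiated C48S libraries and 141, 134 and 134 CPM in undifferentiated WT libraries. Undifferentiated libraries lay far above RA libraries in both lines, and C48S lay above WT in both states. RA lowered Slc7a3 by 9.72-fold in C48S cells and 12.4-fold in WT cells (adjusted p = 5.95e-30 and 6.47e-30). The interaction of 0.35 ± 0.11 was called, but not without WT RA replicate 1 (adjusted p = 0.0934), WT RA replicate 3 (adjusted p = 0.0774) or C48S RA replicate 1 (adjusted p = 0.0699). Slc7a1, the widely expressed arginine carrier, had 108, 100.2 and 100.3 CPM in C48S RA libraries, 59.2, 58.3 and 53.5 CPM in WT RA libraries, 308, 304 and 284 CPM in undifferentiated C48S libraries and 223, 231 and 226 CPM in undifferentiated WT libraries. RA libraries lay below undifferentiated libraries in both lines, and C48S above WT in both states. It fell 2.90-fold with RA in C48S cells and 3.98-fold in WT cells, and it was 1.80-fold higher in C48S after RA and 1.32-fold higher before RA. Slc7a2 fell about as far in the 2 lines, with log2 changes of -1.10 ± 0.10 in C48S cells and -0.88 ± 0.10 in WT cells, and did not differ between genotypes by the test in either state. Slc7a4, a relative with no settled substrate, went the other way and was raised 3.70-fold in C48S cells and 4.33-fold in WT cells. The summed level of the 5 cationic carriers was 70.1 ± 1.15 TPM in C48S RA libraries, 45.8 ± 2.99 TPM in WT RA libraries, 258 ± 9.52 TPM in undifferentiated C48S libraries and 182 ± 1.20 TPM in undifferentiated WT libraries.

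The 3 carriers of system A lie next to each other on chromosome 15, with 44.5 kb between Slc38a1 and Slc38a2 and 295 kb between Slc38a2 and Slc38a4, and they did not move together. Slc38a2, the system A carrier that amino acid shortage induces, had 330.0, 327 and 321 CPM in C48S RA libraries, 137, 125 and 138 CPM in WT RA libraries, 544, 567 and 524 CPM in undifferentiated C48S libraries and 333, 329 and 336 CPM in undifferentiated WT libraries. C48S libraries lay above WT libraries of the same state, and C48S RA libraries reached about the level of undifferentiated WT libraries. It was 2.44-fold higher in C48S after RA and 1.64-fold higher before RA, and RA lowered it 1.67-fold in C48S cells and 2.49-fold in WT cells. These RA changes differed by 0.58 ± 0.067 on the log2 scale (adjusted p = 9.82e-09). Slc38a4, a system A carrier of liver and placenta that is imprinted in the mouse, had 626, 625 and 588 CPM in C48S RA libraries, 989, 1002 and 968 CPM in WT RA libraries, 217, 221 and 183 CPM in undifferentiated C48S libraries and 227, 221 and 215 CPM in undifferentiated WT libraries. WT RA libraries were the highest, C48S RA libraries came next, and the 2 undifferentiated groups overlapped. RA raised Slc38a4 by 2.96-fold in C48S cells and 4.47-fold in WT cells, a difference of -0.59 ± 0.075 (adjusted p = 6.52e-08). The sum of the trophoblast markers was likewise higher in WT RA than in C48S RA libraries, while of the 7 tested markers 2 were called higher and 3 lower in C48S RA libraries, with a median log2 fold change of 0.05. Their part in the level of Slc38a4 was not tested.

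Slc38a1, the system A carrier of neurons and many dividing cells, was higher in C48S by 0.60 ± 0.057 after RA and 0.65 ± 0.057 before RA. RA lowered it slightly in both lines, by 1.24-fold in C48S cells and 1.20-fold in WT cells. With Slc38a4 rising and both neighbours falling, the system A sum was 726 ± 13.5 TPM in C48S RA libraries, 960.1 ± 10.9 TPM in WT RA libraries, 401 ± 42.97 TPM in undifferentiated C48S libraries and 301 ± 4.07 TPM in undifferentiated WT libraries.

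System N carriers move glutamine, histidine and asparagine in either direction, and both differed between the lines in both states. Slc38a5 (chrX:8137372-8146418, GRCm39) had 21.1, 18.9 and 20.4 CPM in C48S RA libraries, 5.60, 4.12 and 3.42 CPM in WT RA libraries, 17.0, 19.8 and 16.4 CPM in undifferentiated C48S libraries and 0.944, 0.924 and 0.651 CPM in undifferentiated WT libraries. Undifferentiated WT libraries were near 1 CPM, and the 2 C48S groups lay close to each other at about the same level. It was 20.6-fold higher in C48S before RA and 4.63-fold higher after RA (adjusted p = 5.33e-19 and 3.59e-15). In C48S cells the RA change was 0.19 ± 0.12 (adjusted p = 0.142), while in WT cells RA raised Slc38a5 by 5.08-fold, a difference of -2.16 ± 0.30 (adjusted p = 4.1e-07). Slc38a3, the system N carrier of liver, kidney and brain, had 26.8, 33.5 and 33.4 CPM in C48S RA libraries, 56.2, 55.2 and 54.5 CPM in WT RA libraries, 10.3, 10.4 and 9.51 CPM in undifferentiated C48S libraries and 6.19, 6.13 and 5.53 CPM in undifferentiated WT libraries. The 4 groups did not overlap. RA raised it in both lines, by 3.09-fold in C48S cells and 9.25-fold in WT cells, and the order of the lines turned round. C48S was lower than WT after RA (-0.83 ± 0.084) and higher before RA (0.76 ± 0.14), with an interaction of -1.58 ± 0.16 (adjusted p = 5.41e-10).

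An E-box, the letters CACGTG that read the same on both strands and that basic helix-loop-helix factors such as MYC and TFEB bind, was present in the promoter windows of 9 carriers. They were Slc1a6, Slc1a7, Slc6a3, Slc6a16, Slc7a14, Slc36a1, Slc38a5, Slc38a7 and Slc43a1. That is 9 of 63 windows (14.3%), beside 7.15% of all windows. The windows of 2 of them that differ between the lines in opposite directions are shown, with the E-box in capitals: Slc38a5 (chrX:8271131-8271430, plus strand), higher in C48S, and the lysosomal carrier Slc36a1 (chr11:55204090-55204389, plus strand), lower in C48S and with 2 copies.
Slc38a5: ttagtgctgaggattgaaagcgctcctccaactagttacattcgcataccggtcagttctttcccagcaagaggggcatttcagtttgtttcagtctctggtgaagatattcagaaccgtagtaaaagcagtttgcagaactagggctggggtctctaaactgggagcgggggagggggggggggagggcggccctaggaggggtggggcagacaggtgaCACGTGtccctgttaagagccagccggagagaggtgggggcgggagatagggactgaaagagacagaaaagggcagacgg
Slc36a1: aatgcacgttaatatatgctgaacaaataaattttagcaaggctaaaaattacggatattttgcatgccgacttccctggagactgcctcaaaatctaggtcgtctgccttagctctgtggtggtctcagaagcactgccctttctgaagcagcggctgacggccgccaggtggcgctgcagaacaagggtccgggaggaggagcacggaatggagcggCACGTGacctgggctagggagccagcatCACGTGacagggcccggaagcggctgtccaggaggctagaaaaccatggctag
The 2 other searches gave little. The octamer ATGCAAAT, which Oct4 binds, occurred in 1 window, that of Slc6a12 (1.59% of windows, beside 1.74% of all), and the retinoic acid response element named DR5 in none (0.0974% of all windows). No match says only that these letters are not in this window.

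Of the other SLC38 carriers, those tied to the lysosome were not moved alike. Slc38a7, which sends glutamine and asparagine out of lysosomes, had 133, 133 and 132 CPM in C48S RA libraries, 89.9, 87.4 and 87.9 CPM in WT RA libraries, 82.4, 80.7 and 82.0 CPM in undifferentiated C48S libraries and 59.0, 62.0 and 58.9 CPM in undifferentiated WT libraries. The 3 libraries of each group lay within 4 CPM of each other, and C48S lay above WT in both states. It was 1.50-fold higher in C48S after RA and 1.36-fold higher before RA, and RA raised it in both lines with no called difference (interaction adjusted p = 0.142). It lies on chromosome 8, with the median shift given above. Slc38a9, the arginine sensor of mTORC1 on lysosomes, had 29.3, 31.0 and 31.1 CPM in C48S RA libraries, 35.6, 38.5 and 37.1 CPM in WT RA libraries, 13.7, 12.04 and 11.2 CPM in undifferentiated C48S libraries and 6.82, 9.40 and 9.002 CPM in undifferentiated WT libraries. C48S RA libraries lay below WT RA libraries, and undifferentiated C48S libraries above undifferentiated WT libraries. It was lower in C48S after RA (-0.29 ± 0.09) and higher before RA (0.55 ± 0.13), and RA raised it 2.45-fold in C48S cells and 4.38-fold in WT cells.

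Slc38a6, a less studied member, turned round in the same way, with 16.2, 14.9 and 15.2 CPM in C48S RA libraries, 30.5, 32.1 and 33.8 CPM in WT RA libraries, 13.7, 9.80 and 9.51 CPM in undifferentiated C48S libraries and 8.81, 6.802 and 10.7 CPM in undifferentiated WT libraries. It was 2.08-fold lower in C48S after RA (adjusted p = 1.9e-09). Before RA the 2 genotypes overlapped, and its call as higher in C48S (0.36 ± 0.15, adjusted p = 0.0415) was lost without WT undifferentiated replicate 1 (adjusted p = 0.0793), WT undifferentiated replicate 2 (adjusted p = 0.336), C48S undifferentiated replicate 1 (adjusted p = 0.422), WT RA replicate 2 (adjusted p = 0.0509) or WT RA replicate 3 (adjusted p = 0.0547). Slc38a10, on chromosome 11, was lower in C48S by nearly the same amount in both states (-0.86 ± 0.058 after RA and -0.90 ± 0.057 before RA), and its level was 90.5 ± 1.40 CPM in C48S RA libraries, 164 ± 4.36 CPM in WT RA libraries, 124 ± 13.3 CPM in undifferentiated C48S libraries and 229.8 ± 8.34 CPM in undifferentiated WT libraries. Slc38a8 stayed under 2 CPM on average in every group, at 0.983 ± 0.692 CPM in undifferentiated C48S libraries and 1.72 ± 0.293 CPM in undifferentiated WT libraries. That difference was not called (-0.82 ± 0.41), and without undifferentiated C48S replicate 3 it was (-1.48, adjusted p = 0.00846).

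Among carriers of glutamate and aspartate, Slc1a1 was far higher in undifferentiated WT libraries than in any other group. This carrier, which also takes up cysteine, had 2.61, 1.96 and 1.51 CPM in C48S RA libraries, 2.49, 3.52 and 3.13 CPM in WT RA libraries, 3.14, 2.88 and 3.41 CPM in undifferentiated C48S libraries and 58.2, 60.8 and 55.7 CPM in undifferentiated WT libraries. Undifferentiated WT libraries stood far above the other 9, which lay between 1.51 and 3.52 CPM. Before RA it was 18.5-fold lower in C48S (adjusted p = 2.32e-24), and RA lowered it 18.9-fold in WT cells (adjusted p = 2.62e-25). In C48S cells RA lowered it 1.54-fold, a call lost without C48S RA replicate 3 (adjusted p = 0.0998). After RA it was 1.51-fold lower in C48S, a call lost without WT RA replicate 2 (adjusted p = 0.133), C48S RA replicate 2 (adjusted p = 0.0548) or C48S RA replicate 3 (adjusted p = 0.154). The RA changes differed by 3.62 ± 0.29 (adjusted p = 1.07e-12).

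Slc1a3, the glial glutamate carrier GLAST, had 11.1, 11.5 and 10.1 CPM in C48S RA libraries, 6.94, 5.32 and 4.20 CPM in WT RA libraries, 12.3, 13.3 and 10.96 CPM in undifferentiated C48S libraries and 4.72, 3.19 and 4.34 CPM in undifferentiated WT libraries. All C48S libraries lay above all WT libraries. It was 1.99-fold higher in C48S after RA and 3.02-fold higher before RA. Its rise with RA in WT cells was lost without WT undifferentiated replicate 2 (adjusted p = 0.259), WT undifferentiated replicate 3 (adjusted p = 0.0504), WT RA replicate 1 (adjusted p = 0.259) or WT RA replicate 2 (adjusted p = 0.0587). Its interaction (-0.60 ± 0.24) sat at the threshold (adjusted p = 0.0478) and was lost when any of 7 single libraries was left out. Slc1a6, a glutamate carrier of the cerebellum, was raised by RA to 4.15 ± 1.10 CPM in C48S cells, against 0.717 ± 0.349 CPM before, and to 7.11 ± 0.817 CPM in WT cells, against 0.437 ± 0.203 CPM before. Its RA change was lower in C48S (-1.48 ± 0.56, adjusted p = 0.0321), a call lost without WT undifferentiated replicate 1 (adjusted p = 0.0852), WT undifferentiated replicate 3 (adjusted p = 0.08), C48S undifferentiated replicate 1 (adjusted p = 0.261), WT RA replicate 1 (adjusted p = 0.0528) or C48S RA replicate 1 (adjusted p = 0.0614). Slc1a2, the main glutamate carrier of astrocytes, stayed low, at 1.73 ± 0.122 CPM in C48S RA libraries and 1.601 ± 0.736 CPM in WT RA libraries. In WT cells it was 15.9-fold (95% counting interval 5.12 to 79.6) higher after RA.

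In the SLC6 family the carriers of taurine and creatine were the most abundant and moved in different ways. Slc6a6, the taurine carrier, had 326, 317 and 315 CPM in C48S RA libraries, 128, 120.5 and 119.9 CPM in WT RA libraries, 438, 412 and 379 CPM in undifferentiated C48S libraries and 268, 260.2 and 264 CPM in undifferentiated WT libraries. WT RA libraries were the lowest and undifferentiated C48S libraries the highest. It was 2.60-fold higher in C48S after RA and 1.55-fold higher before RA, and RA lowered it 1.28-fold in C48S cells and 2.15-fold in WT cells (difference 0.75 ± 0.071, adjusted p = 1.02e-10). Slc6a8, the creatine carrier, had 104.1, 111 and 103 CPM in C48S RA libraries, 105, 107 and 105 CPM in WT RA libraries, 119.9, 119 and 108 CPM in undifferentiated C48S libraries and 266, 259.6 and 249 CPM in undifferentiated WT libraries. Undifferentiated WT libraries stood alone at the top, and the C48S RA and WT RA libraries overlapped (0.01 ± 0.054, adjusted p = 0.934). Before RA it was 2.23-fold lower in C48S, and RA lowered it 2.44-fold in WT cells. The much smaller fall in C48S cells (-0.13 ± 0.053) was lost without C48S undifferentiated replicate 1 (adjusted p = 0.148), C48S RA replicate 1 (adjusted p = 0.119) or C48S RA replicate 3 (adjusted p = 0.14).

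Of the GABA carriers on chromosome 6, Slc6a11 had 2.14 ± 0.493 CPM in C48S RA libraries and 0.865 ± 0.242 CPM in WT RA libraries, a 2.501-fold difference (adjusted p = 0.00374) that DESeq2 did not call (adjusted p = 0.0639). With RA, Slc6a11 was 22.4-fold (95% counting interval 7.38 to 111) higher in C48S cells, and at least 8.75-fold higher in WT cells against a floor of 3 counts, since no undifferentiated WT library held a count.

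Slc6a13, a GABA and taurine carrier of liver, kidney and brain coverings, had 0.692, 0.468 and 0.634 CPM in C48S RA libraries, 13.99, 10.7 and 11.8 CPM in WT RA libraries, 0, 0.107 and 0.207 CPM in undifferentiated C48S libraries and 1.47, 1.76 and 0.868 CPM in undifferentiated WT libraries. WT RA libraries stood far above the other 9. It was 19.7-fold lower in C48S after RA (adjusted p = 4.89e-16), and before RA 14.4-fold (95% counting interval 4.61 to 72.6) lower. RA raised it 8.62-fold in WT cells and, from 3 counts in all, 6.23-fold (95% counting interval 1.87 to 32.5) in C48S cells. Its neighbour at 5.34 kb, the betaine and GABA carrier Slc6a12, stayed under 1 CPM on average in every group and was called in none of the comparisons. The chromosome 6 median, 0.63 after RA and 0.58 before RA for C48S against WT, is of opposite sign to the difference of Slc6a13. After RA it is of the same sign as the difference of Slc6a11.

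Of the other SLC6 carriers, 2 that take up neutral amino acids in neurons moved apart with RA. Slc6a15 had 2.15, 2.81 and 2.22 CPM in C48S RA libraries, 3.42, 4.29 and 2.64 CPM in WT RA libraries, 10.2, 9.38 and 7.45 CPM in undifferentiated C48S libraries and 20.1, 19.99 and 18.5 CPM in undifferentiated WT libraries. Undifferentiated WT libraries were the highest, undifferentiated C48S libraries came next, and the 2 RA groups lay below them and overlapped. RA lowered it 3.80-fold in C48S cells and 5.61-fold in WT cells, and before RA it was 2.16-fold lower in C48S. After RA its lower level in C48S (-0.55 ± 0.22) was lost without WT RA replicate 1 (adjusted p = 0.0603), WT RA replicate 2 (adjusted p = 0.269), C48S RA replicate 1 (adjusted p = 0.117) or C48S RA replicate 3 (adjusted p = 0.099). Slc6a17 was raised by RA to 4.98 ± 0.585 CPM in C48S cells, against 0.606 ± 0.177 CPM before, and to 7.69 ± 1.39 CPM in WT cells, against 1.34 ± 0.396 CPM before. It was lower in C48S after RA (-0.62 ± 0.19, adjusted p = 0.00497), and its call before RA (-1.11 ± 0.40) was lost without WT undifferentiated replicate 3 (adjusted p = 0.0908) or C48S undifferentiated replicate 3 (adjusted p = 0.0754). The proline carrier Slc6a7 was 1.82-fold higher in C48S after RA and fell with RA in both lines, by 2.09-fold in C48S cells and 3.12-fold in WT cells. The glycine carrier Slc6a9 lay between 4.45 and 8.11 CPM in all 12 libraries. Its one call, a rise with RA in C48S cells (0.36 ± 0.17, adjusted p = 0.0495), was lost without any of 11 single libraries and with DESeq2 (adjusted p = 0.126).

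The family also holds monoamine carriers, and 2 of them appeared with RA. Slc6a4, the serotonin carrier, had 1.92, 2.15 and 2.22 CPM in C48S RA libraries, 2.38, 2.83 and 2.25 CPM in WT RA libraries, 0, 0.107 and 0 CPM in undifferentiated C48S libraries and 0.210, 0.252 and 0.434 CPM in undifferentiated WT libraries. C48S RA libraries lay just below WT RA libraries, and both lay above all undifferentiated libraries, 64.5-fold (95% counting interval 11.2 to 2582) higher in C48S cells and 8.21-fold higher in WT cells. Its call as lower in C48S before RA rested on 1 count against 9 and was lost without WT undifferentiated replicate 3 (adjusted p = 0.0737), C48S undifferentiated replicate 1 (adjusted p = 0.0944) or C48S undifferentiated replicate 3 (adjusted p = 0.0784). Slc6a3, the dopamine carrier, reached 1.70 ± 0.507 CPM in C48S RA libraries and 1.35 ± 0.831 CPM in WT RA libraries, 17.8-fold (95% counting interval 5.83 to 88.8) and 6.38-fold higher than before RA. The orphan carrier Slc6a16 was raised by RA in C48S cells (2.59-fold, adjusted p = 0.00157).

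Of the proton-coupled SLC36 carriers, Slc36a1 and Slc36a2 lie side by side on chromosome 11 and were lower in C48S in both states. Slc36a1, found on lysosomes, had 19.2, 22.4 and 20.05 CPM in C48S RA libraries, 38.7, 38.8 and 34.3 CPM in WT RA libraries, 24.9, 23.2 and 19.96 CPM in undifferentiated C48S libraries and 38.8, 34.7 and 37.96 CPM in undifferentiated WT libraries. All C48S libraries lay below all WT libraries. It was 1.82-fold lower in C48S after RA and 1.63-fold lower before RA (adjusted p = 6.79e-10 and 5.68e-08), and RA left it unmoved by the test, with log2 changes of -0.15 ± 0.10 in C48S cells and 0.01 ± 0.088 in WT cells. Without undifferentiated C48S replicate 3 the change in C48S cells was -0.23 (adjusted p = 0.0293). Slc36a2, 19.3 kb away, had 0.692, 1.12 and 1.11 CPM in C48S RA libraries, 1.76, 1.80 and 2.05 CPM in WT RA libraries, 0, 0 and 0 CPM in undifferentiated C48S libraries and 0.839, 0.336 and 0.651 CPM in undifferentiated WT libraries. All undifferentiated C48S libraries were at 0, so the gene was at least 6.03-fold lower there than in undifferentiated WT libraries and at least 9.91-fold higher after RA in C48S cells, both taking 3 counts in the group as the floor. RA raised it 3.13-fold in WT cells. After RA its lower level in C48S was called (-0.94 ± 0.37, adjusted p = 0.0298), but not without WT RA replicate 1 (adjusted p = 0.0528), WT RA replicate 2 (adjusted p = 0.0629), WT RA replicate 3 (adjusted p = 0.0849) or C48S RA replicate 1 (adjusted p = 0.143), and not by DESeq2 (adjusted p = 0.135). Slc36a4 on chromosome 9 did not differ between genotypes by the test and rose with RA 2.46-fold in C48S cells and 2.33-fold in WT cells.

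In the SLC43 family Slc43a3, which carries purine bases rather than amino acids, had 14.2, 12.7 and 14.8 CPM in C48S RA libraries, 53.7, 60.6 and 52.7 CPM in WT RA libraries, 3.90, 3.41 and 2.79 CPM in undifferentiated C48S libraries and 32.4, 34.1 and 32.0 CPM in undifferentiated WT libraries. Undifferentiated C48S libraries were the lowest and WT RA libraries the highest, with no overlap between any 2 groups. It was 3.99-fold lower in C48S after RA and 9.64-fold lower before RA (adjusted p = 1.85e-19 and 1.61e-21). RA raised it 4.10-fold in C48S cells and 1.70-fold in WT cells, a difference of 1.27 ± 0.17 (adjusted p = 1.81e-07). Slc43a1, a leucine carrier 73.0 kb away on chromosome 2, was lower in C48S with log2 changes of -0.46 ± 0.12 after RA and -0.47 ± 0.094 before RA, and RA lowered it 2.58-fold in C48S cells and 2.60-fold in WT cells. Slc43a2, another leucine carrier, rose with RA 2.27-fold in C48S cells and 2.64-fold in WT cells, and did not differ between genotypes by the test in either state. Without undifferentiated C48S replicate 3 its difference before RA was 0.27 (adjusted p = 0.013).

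The genotype differences before and after RA share no library and can be set side by side. Of the 18 carriers higher in C48S after RA, 13 (72.2%) were also higher before RA, which is 81.3% of the 16 higher then. Of all genes higher before RA, 55.5% were also higher after RA, and of the 5168 genes higher after RA 2739 were also higher before RA. Among the 13 carriers were Slc1a3, Slc3a2, Slc6a6, Slc7a1, Slc7a3, Slc7a5, Slc7a6, Slc7a7, Slc38a1, Slc38a2, Slc38a5 and Slc38a7. Of the 15 carriers lower in C48S after RA, 10 (66.7%) were also lower before RA, which is 76.9% of the 13 lower then, beside 47.98% of all genes lower before RA. Of the 4617 genes lower after RA, 2417 were also lower before RA. Slc38a3, Slc38a6 and Slc38a9 were called higher before RA and lower after it, and Slc7a8 the reverse. The RA changes of the 2 lines likewise share no library. RA raised 20 carriers in both lines, 83.3% of the 24 raised in C48S cells and 87.0% of the 23 raised in WT cells, and lowered 15 in both lines, 100% of the 15 lowered in C48S cells and 78.9% of the 19 lowered in WT cells. Of all genes raised in WT cells 77.6% were raised in C48S cells, and of all genes lowered in WT cells 75.6% were lowered in C48S cells. Of the 6991 genes raised in C48S cells 5702 were raised in WT cells, and of the 6212 lowered in C48S cells 5070 were lowered in WT cells.

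**Figure D4:**
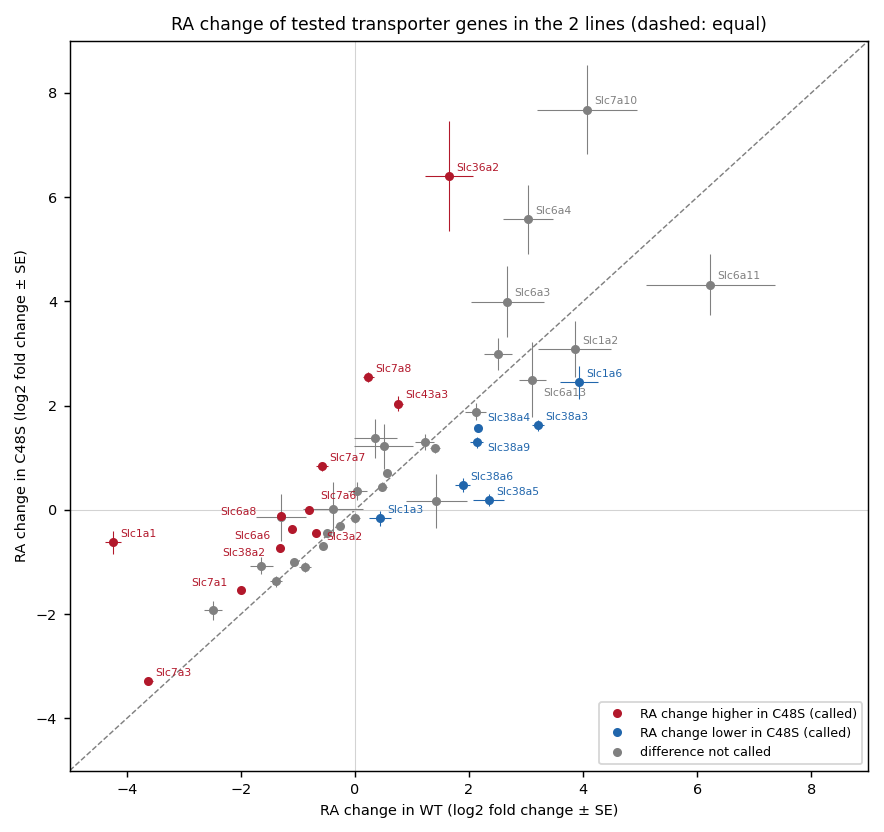
Log2 fold change (± SE) of 46 of the 47 tested carriers with RA in C48S cells (vertical axis) and in WT cells (horizontal axis), with the dashed line for equal changes and colours for the call on the difference. Slc1a1 and Slc7a8 lie well above the line and Slc38a5 and Slc38a3 below it. The fitted values of Slc36a2, Slc7a10 and Slc6a11, each without a count in 1 undifferentiated group, are no bounds.

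Part of the genotype difference falls on chromosomes 6, 8 and 11, whose genes as a whole were shifted in C48S. Among genes of at least 1 CPM the median log2 fold change for C48S against WT was 0.63 after RA and 0.58 before RA on chromosome 6 (659 genes), 0.58 and 0.52 on chromosome 8 (739 genes) and -0.48 and -0.53 on chromosome 11 (1167 genes), beside 0.05 and 0.02 over 13928 genes. These chromosomes hold 16 of the 47 tested carriers. After RA, 6 of those 16 were higher and 5 lower in C48S, and of the other 31 carriers 12 were higher and 10 lower. Before RA, 5 of the 16 were higher and 6 lower, and of the other 31 carriers 11 were higher and 7 lower. Over all genes, 28.8% were higher and 25.7% lower after RA, and 27.5% and 28.1% before RA. The shares over all genes of these chromosomes were not counted. Slc7a5, Slc7a6 and Slc38a7 on chromosome 8 and Slc6a6 on chromosome 6 were higher in C48S in both states, as those chromosomes were. Slc1a4, Slc36a1 and Slc38a10 on chromosome 11 were lower in both states, as that chromosome was. The interaction was called for 4 of the 16 and for 16 of the other 31, beside 39.4% of all genes. Its median was between 0.04 and 0.08 on chromosomes 6, 8 and 11 and between -0.0083 and 0.10 on the other autosomes and X. The part of the chromosome shifts in single carriers was not tested.

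**Figure D5:**
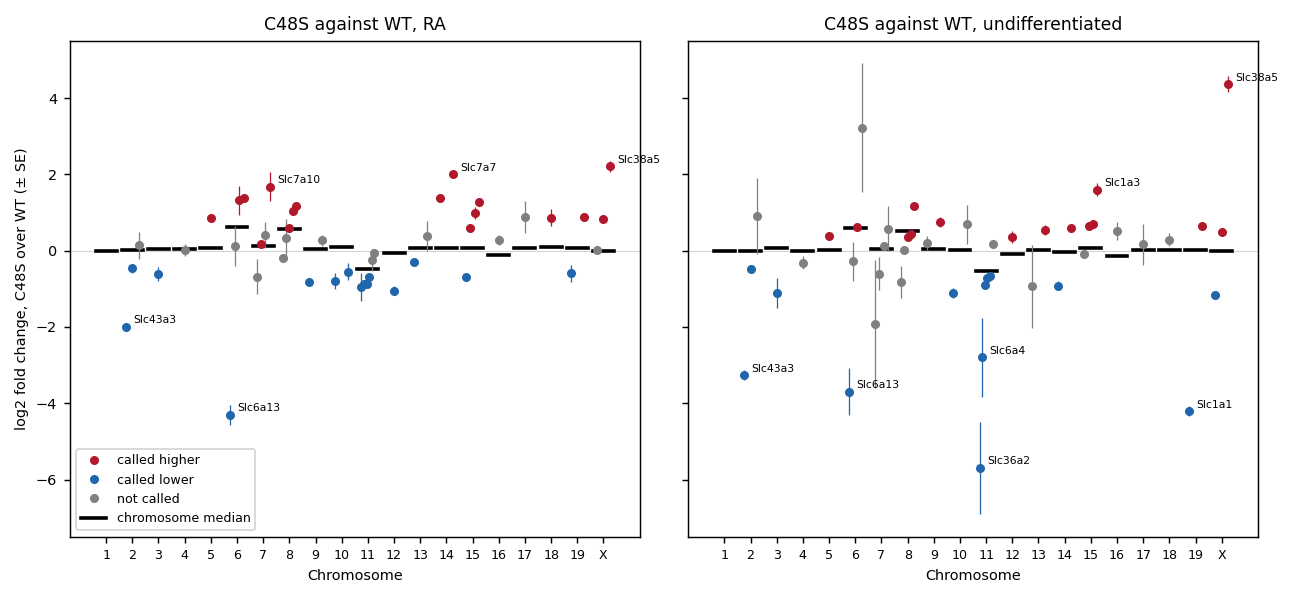
Log2 fold change (± SE) of 46 tested carriers for C48S against WT, after RA on the left and undifferentiated on the right, by chromosome. Black bars mark the chromosome medians of genes of at least 1 CPM, which stand at 0.63, 0.58 and -0.48 on chromosomes 6, 8 and 11 after RA, and the called carriers lie on many chromosomes besides these.

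Genes that respond to, sense or use amino acids were counted in 5 lists. Of 25 genes of the ATF4 amino acid response, 13 were higher and 7 lower in C48S after RA (28.8% and 25.7% of all genes), and 14 were higher and 5 lower before RA (27.5% and 28.1% of all genes). Atf4 itself was higher in C48S by 0.95 ± 0.059 after RA and 0.98 ± 0.056 before RA. The asparagine synthetase gene Asns, on chromosome 6, was higher in C48S by 1.93 ± 0.053 after RA, and its RA change differed between the lines by 1.62 ± 0.072, with a log2 change of -2.30 ± 0.054 in WT cells. RA raised 8 and lowered 11 of these genes in C48S cells (39.0% and 34.6% of all genes). In WT cells RA raised 10 and lowered 13 (40.9% and 37.4% of all genes). Ddit4, a brake on mTORC1, was the gene of the list that RA raised with the smallest adjusted p, by 1.76 ± 0.059 in C48S cells and 2.93 ± 0.062 in WT cells.

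Of 20 cytosolic aminoacyl-tRNA synthetases, which load amino acids onto tRNA, RA lowered 18 in C48S cells and 20 in WT cells and raised none in either line, where RA lowered 34.6% of all genes in C48S cells and 37.4% in WT cells. After RA 13 were higher and none lower in C48S (28.8% and 25.7% of all genes). Before RA 8 were higher and 6 lower (27.5% and 28.1% of all genes). The RA change was higher in C48S for 10 and lower for 2 (22.2% and 17.2% of all genes). Aars, on chromosome 8, was higher in C48S by 1.13 ± 0.045 after RA and 0.71 ± 0.044 before RA, and Tars fell with RA by log2 changes of -1.21 ± 0.053 in C48S cells and -1.58 ± 0.055 in WT cells.

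Of 16 enzymes of glutamine and branched-chain amino acid metabolism, 9 were higher and 1 lower in C48S after RA (28.8% and 25.7% of all genes), and 9 were higher and 2 lower before RA (27.5% and 28.1% of all genes). RA raised 3 and lowered 8 in C48S cells (39.0% and 34.6% of all genes). In WT cells RA raised 2 and lowered 10 (40.9% and 37.4% of all genes). The branched-chain aminotransferases led this list. Bcat1, on chromosome 6, had log2 changes of -1.76 ± 0.045 with RA in C48S cells and -3.35 ± 0.051 in WT cells, and was higher in C48S by 2.44 ± 0.05 after RA. Bcat2, on chromosome 7, was higher in C48S by 1.75 ± 0.071 after RA and 0.62 ± 0.059 before RA.

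Of 32 genes of mTORC1 amino acid sensing, 11 were higher and 12 lower in C48S after RA (28.8% and 25.7% of all genes), and 16 were higher and 11 lower before RA (27.5% and 28.1% of all genes). RA raised 8 and lowered 19 in C48S cells (39.0% and 34.6% of all genes), and raised 11 and lowered 16 in WT cells (40.9% and 37.4% of all genes). The gene of the arginine sensor, Castor1, on chromosome 11, was lower in C48S by log2 changes of -1.43 ± 0.086 after RA and -3.22 ± 0.08 before RA. The related gene Castor2 rose with RA by 2.56 ± 0.082 in C48S cells and 3.22 ± 0.086 in WT cells. Of 20 amino acid and peptide carriers of other families 15 were tested. After RA 9 of these were higher and 2 lower in C48S (28.8% and 25.7% of all genes). Before RA 6 were higher and 3 lower (27.5% and 28.1% of all genes). RA raised 6 and lowered 7 of these in C48S cells (39.0% and 34.6% of all genes). In WT cells RA raised 6 and lowered 8 (40.9% and 37.4% of all genes). The mitochondrial leucine carrier Slc25a44 was higher in C48S by 0.94 ± 0.093 after RA and 1.31 ± 0.087 before RA, and the peptide carrier Slc15a2 rose with RA by 2.36 ± 0.11 in C48S cells and 2.01 ± 0.11 in WT cells.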

How the data were processed

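RNA sequencing of total RNA after rRNA depletion was measured in 12 libraries of mouse embryonic stem cells, 3 in each of 4 groups set by the titles. The deposited values are whole-number counts of read pairs per gene. Per the file headers, featureCounts 1.6.3 counted pairs on Ensembl GRCm39 release 104 with strand option 2, giving each pair to the gene of largest overlap. Per the submitters' processing notes, STAR 2.7.9a and DESeq2 were used with build mm39. Overlap with a near-identical copy of a gene cannot be seen in such counts.

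Gene symbols came from GENCODE M21 on the preceding build, for names alone, which matched 52135 of the 55416 gene IDs (94.1%). Promoter windows came from RefSeq (GRCm38.p6) and were never joined to GRCm39 coordinates. Depth, 8678088 to 13597098 counts in a library, limits genes under 1 CPM to a few counts, and intervals and floors cover counting error alone.

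In R 4.3.3, edgeR 4.0.16 (limma 3.58.1) fitted 1 mean per group over all 12 libraries by quasi-likelihood after TMM scaling, keeping genes with a count of at least 10 by filterByExpr, with 8 residual degrees of freedom. Adjusted p is Benjamini-Hochberg over 17940 genes with a threshold of 0.05, and the SE is the log2 fold change over the root of F. The script was tested on simulated data. Alternatives were DESeq2 1.42.0, RLE scaling, other filters, a replicate block, a 1.5-fold null, the compared groups alone and leaving out each library. Same-numbered libraries did not deviate together (correlations from -0.0687 to 0.0451), so the numbers pair nothing.

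The carriers and gene lists were chosen with earlier results of these data known. The text names the 10 carriers of highest TPM, up to 6 higher and 6 lower called carriers per comparison by fold change (those reaching 1 CPM and, except for the interaction, with groups that did not overlap), the heavy chains with their called light chains, any other carrier by its value, and up to 4 genes of each pathway list per comparison by adjusted p. Pou5f1 carries a point mutation and keeps its transcript, so it checks no label. The results of 1 tested carrier are not reported here, though counts, medians and sums include it.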

Additional observations from a re-analysis of the deposited data

Results flagged for a closer look

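The difference between the RA changes of the lines, C48S less WT, tested as an interaction term by edgeR's quasi-likelihood test with Benjamini-Hochberg adjustment, passed the threshold for 20 carriers, of which 19 are given here. Values are log2 differences of change. The difference was positive for 13, among them 4.75 for Slc36a2, 3.62 for Slc1a1, 2.31 for Slc7a8, 1.41 for Slc7a7, 1.27 for Slc43a3, 1.16 for Slc6a8, 0.80 for Slc7a6, 0.75 for Slc6a6, 0.58 for Slc38a2, 0.45 for Slc7a1, 0.35 for Slc7a3 and 0.24 for Slc3a2. It was negative for 7: -0.59 for Slc38a4, -0.60 for Slc1a3, -0.84 for Slc38a9, -1.42 for Slc38a6, -1.48 for Slc1a6, -1.58 for Slc38a3 and -2.16 for Slc38a5. The value of Slc36a2 depends on the prior count of the fit, since undifferentiated C48S libraries held none of its reads. The calls of Slc7a3, Slc1a6 and Slc1a3 were lost when single libraries were left out.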

How the results depend on the processing

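No called carrier changed direction under any alternative that was run. Counts of called carriers, higher then lower, ranged over single libraries left out from 17 to 19 and 12 to 15 for C48S against WT after RA (8889 to 10737 of all genes), from 15 to 18 and 11 to 14 before RA (9189 to 10221), from 22 to 24 and 13 to 16 for RA in C48S cells (12706 to 13381), from 21 to 23 and 19 to 19 for RA in WT cells (13687 to 14743) and from 12 to 15 and 5 to 9 for the interaction (6420 to 7771). Against a 1.5-fold null fewer were called: 13 higher and 7 lower after RA (2952 of all genes), 5 and 8 before RA (3605), 20 and 9 with RA in C48S cells (7032), 19 and 15 with RA in WT cells (9060) and 9 and 3 for the interaction (2257), as that null asks for a larger change. Leaving out chromosomes 6, 8, 11 and Y kept 31 tested carriers. Of these, 12 were higher and 10 lower in C48S after RA, and 11 and 7 before RA. The RA change was higher in C48S for 9 of them and lower for 7. Shares over all genes without these chromosomes were not counted. Over 235 carrier results, the 1.5-fold null ended 55 calls, DESeq2 12, no low-count filter 5, RLE scaling 2 and protein-coding genes alone 1. A minimum count of 50 ended 1 of the 180 results it still gave and the compared groups alone, without an interaction, 3 of 163. These settings test fewer carriers, and calls of untested ones are not in the tally. With a minimum count of 50 the counts were 16 higher and 14 lower after RA (8198 of all genes) and 16 and 11 before RA (8717). They were 16 and 14 with RA in C48S cells and 16 and 18 with RA in WT cells (11069 of all genes). With the compared groups alone the counts were, in that order, 18 and 15 (10480 of all genes), 15 and 9 (8847), 21 and 14, and 18 and 19 (13895). For the other settings the cause was not tested. With the replicate number as a block the counts were 18 higher and 15 lower after RA (9638 of all genes) and 16 and 13 before RA (9858). They were 24 and 15 with RA in C48S cells, 23 and 19 with RA in WT cells (13969 of all genes) and 13 and 6 for the interaction. At the minimum count of 50, with the compared groups alone and with the block, numbers of genes tested are not given here. All-gene counts with RA in C48S cells and for the interaction are not given for them either. The block gained Slc1a5 before RA (adjusted p = 0.0403) and lost Slc38a6 before RA (adjusted p = 0.0501) and the interaction of Slc1a3 (adjusted p = 0.0515), and 5 of 12 libraries correlated best with their own number. Carriers under 1 CPM rest on few counts, so that small differences in them were not detectable at this depth.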
